A study of Mus musculus with 18 samples.

Results

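Elf5, Ascl2, Esx1, Tfap2c, Eomes and Gata3 are transcription factor genes of the trophoblast, the lineage that forms the fetal part of the placenta. They were taken by gene symbol, 6 of the 31053 mouse genes listed in the files. Their counts were followed in 18 droplet libraries of the 10x 3' v3 kind, each labelled as a single mouse embryo of the 129S4/SvJae background at embryonic day 8.5. The libraries came from 7 wild-type (WT) embryos, 3 Dnmt1 null embryos, 4 Dnmt3a null embryos and 4 Dnmt3b null embryos, called Dnmt1 KO, Dnmt3a KO and Dnmt3b KO here. The question put to these genes was whether embryos without a DNA methyltransferase made them in trophoblast cells alone or also in other cells. The other cells include yolk sac and blood as well as the embryo proper. WT embryos make several members there too, so such expression is not ectopic as such. By the labels and the study's crosses the nulls were constitutive, so every cell of a KO embryo should lack the enzyme. The study used ectoplacental cone tissue for genotyping, so an unknown part of the trophoblast had been removed before dissociation.

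Dnmt1 copies methylation onto new DNA strands at replication, while Dnmt3a and Dnmt3b set methylation on unmethylated DNA. Elf5, an ETS-family factor, is known as a gatekeeper of the split between embryo and trophoblast: its promoter is methylated and silent in the embryonic lineage and unmethylated in trophoblast stem cells, where Elf5 and Eomes sustain each other together with Cdx2. Eomes, a T-box factor, keeps trophoblast stem cells and also acts in early endoderm and mesoderm. Tfap2c, of the AP2 family, and Gata3, a zinc finger factor, drive trophoblast fate and are also made in surface ectoderm and other embryonic tissues. Ascl2, a basic helix-loop-helix factor from an imprinted locus, is needed for spongiotrophoblast, and Esx1, an X-linked homeobox factor, acts in the labyrinth of the placenta. DNA methylation was not measured in these libraries.

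Promoter windows are shown for Elf5, Ascl2 and Eomes because these members carry the result. The Elf5 and Eomes windows hold fewer CG dinucleotides, the sites of methylation, than the Ascl2 window. Of the 6 members, 5 matched the RefSeq promoter table (build GRCm38.p6), and Tfap2c did not. Each window covers the 250 bases before a start, the strand is that of the gene, and CG dinucleotides are in capitals. For Elf5 the window lies before the second of its annotated starts at chr2:103423818-103424061 on the plus strand and was printed up to the exon, 244 bases. The Ascl2 window is at chr7:142969265-142969514 on the minus strand, and the Eomes window is at chr9:118477939-118478188 on the plus strand.
Elf5: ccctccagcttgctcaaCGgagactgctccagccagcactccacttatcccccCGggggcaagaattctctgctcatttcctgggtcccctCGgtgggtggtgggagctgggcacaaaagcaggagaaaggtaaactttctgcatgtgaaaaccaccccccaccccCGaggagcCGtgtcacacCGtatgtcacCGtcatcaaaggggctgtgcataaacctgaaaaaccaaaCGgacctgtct
Ascl2: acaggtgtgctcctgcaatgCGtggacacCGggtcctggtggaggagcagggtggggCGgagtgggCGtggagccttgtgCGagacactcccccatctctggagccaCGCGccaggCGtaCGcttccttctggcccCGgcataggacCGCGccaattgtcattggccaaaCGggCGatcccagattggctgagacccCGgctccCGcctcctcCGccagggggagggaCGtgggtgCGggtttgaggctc
Eomes: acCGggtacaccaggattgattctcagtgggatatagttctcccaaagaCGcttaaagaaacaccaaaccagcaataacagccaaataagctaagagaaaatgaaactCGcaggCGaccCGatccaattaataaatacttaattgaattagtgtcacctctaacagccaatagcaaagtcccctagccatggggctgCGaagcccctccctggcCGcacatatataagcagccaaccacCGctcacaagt

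The windows printed for Elf5 and Eomes held 8 CG each, and 43.0% of the 32851 promoters in the table had at least as many. The Ascl2 window held 19, which 19.7% of promoters reached, and the median over all promoters was 6. The window at the first Elf5 start, which is exon throughout, held 2. The Esx1 window held 24 and the Gata3 window, which an exon of Gm13256 also covers, held 19. The letters of 4 motifs were searched on both strands. GCCNNNGGC, an AP2-family motif, was found in the Gata3 window alone, at 3 places, against 13.7% of all promoters. The T-box motif TCACACC had 1 match, in the Elf5 window, against 3.33%. The GATA motif AGATAA had none, against 9.99%, and the ETS motif GGAA, with 1 match in the Elf5 window, is in 93.4% of promoters.

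Cells were kept at 1500 mouse UMIs or more (a UMI is a counted RNA molecule) and with predicted doublets removed, which left 34421 cells of WT, 7068 of Dnmt1 KO, 34004 of Dnmt3a KO and 34469 of Dnmt3b KO, between 36606912 and 233594354 UMIs a library. Dnmt1 was 14.9 to 15.7 CPM (the UMIs of a gene per 1000000 UMIs of the sum) in Dnmt1 KO against 83.2 to 116 in WT, and Dnmt3a was 7.39 to 11.8 CPM in Dnmt3a KO against 23.1 to 34.9. Dnmt3b was 54.3 to 68.3 CPM in Dnmt3b KO and 35.3 to 87.2 in WT, but a 3' tag outside the deleted part checks nothing, and Dnmt3a was 15 CPM in the library labelled Dnmt3b KO 11 and 7.56 in the library labelled Dnmt3b KO 12, both under the WT range and the latter within that of Dnmt3a KO. Before filtering, Dnmt3b KO 1 and 2 shared 12249 barcodes, against at most 133 in any other pair of libraries. Of these, 7858 were kept in both, 94.9% of them in the same cell class. Both libraries were therefore summed and counted as 1 sample, so that Dnmt3b KO has n = 3. Whether they came from separate embryos, as labelled, is not known. The 34469 Dnmt3b KO cells add both libraries, so shared barcodes are in it for each. By Y-linked counts, WT 2 was the only male among the WT embryos, while every KO embryo but Dnmt3b KO 12 was male.

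Trophoblast-like cells were named from 11 markers (among them Wnt7b, Gjb5, Plac1, Rhox6, Rhox9, Sfmbt2, Nrk, Bmp8b, Dusp9 and Mbnl3), and the 6 members were kept out of both the clustering and the naming. The label still rests on genes that vary with them, such as Bmp8b, so it is not independent of their levels. In Dnmt1 KO, 82 (5.6%), 948 (31.0%) and 114 (4.47%) kept cells were trophoblast-like in embryos 1, 2 and 3. Among WT embryos, WT 2 held 126 (1.75%) and the other 6 held at most 1 each. Dnmt3a KO embryos held at most 2, and Dnmt3b KO embryos held 0 to 13. Cluster 40, with 933 kept cells, 41.7% of them Dnmt3b KO, scored 1.64 for trophoblast and 1.45 for surface ectoderm. It stayed unnamed because its leading genes held more markers of another class. Its cells are therefore counted outside trophoblast-like cells. The mean share was higher in Dnmt1 KO than in WT by 8.04 on the log2 scale, with 0.5 cells added (two-sided exact permutation test, p = 0.00833, the smallest that 120 splits can give, Benjamini-Hochberg adjusted p = 0.025 over the 3 KO groups). Leaving out any 1 Dnmt1 KO embryo gave an adjusted p of 0.0833, the smallest such a split allows. The shares in Dnmt3a KO (-1.54, exact permutation adjusted p = 0.523) and Dnmt3b KO (-0.48, adjusted p = 0.842) did not pass the test. The part of the removed cone tissue in these shares was not tested.

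All 6 members were detected in the trophoblast-like cells of WT 2 and of the 3 Dnmt1 KO embryos, the libraries with at least 25 such cells. Elf5 stood at 78.2 CPM in WT 2 (95% Poisson interval 68.5 to 88.8, for counting error only) and at 98.5, 88.5 and 91.2 CPM in Dnmt1 KO 1, 2 and 3. The intervals of Dnmt1 KO 2 and 3 overlapped that of WT 2. Tfap2c stood at 142 CPM in WT 2 and at 124, 196 and 139 CPM in Dnmt1 KO. Ascl2 stood at 131 CPM in WT 2 and at 61.6, 164 and 75.5 CPM in Dnmt1 KO, with WT 2 between the lowest and the highest of the mutants for both genes. Eomes stood at 13.6 CPM in WT 2 (9.79 to 18.5) and at 28.3, 19.3 and 19.97 CPM in Dnmt1 KO. Gata3, at 15.6 CPM in WT 2 and 21.4, 17.6 and 17.9 CPM in Dnmt1 KO, had overlapping intervals in all 4 libraries. The intervals of Ascl2 in all 3 Dnmt1 KO embryos, of Tfap2c in embryo 2 and of Eomes in embryo 1 did not overlap those of WT 2. Esx1 was farthest apart, at 136 CPM in WT 2 (123 to 150) against 34.3, 22.6 and 21.8 CPM in Dnmt1 KO. With 1 WT embryo no test of these levels was possible, and the WT 2 cells were shallow, with a median of 3448 UMIs against 74792, 42724 and 44458.5 in Dnmt1 KO 1, 2 and 3.

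**Figure D1:**
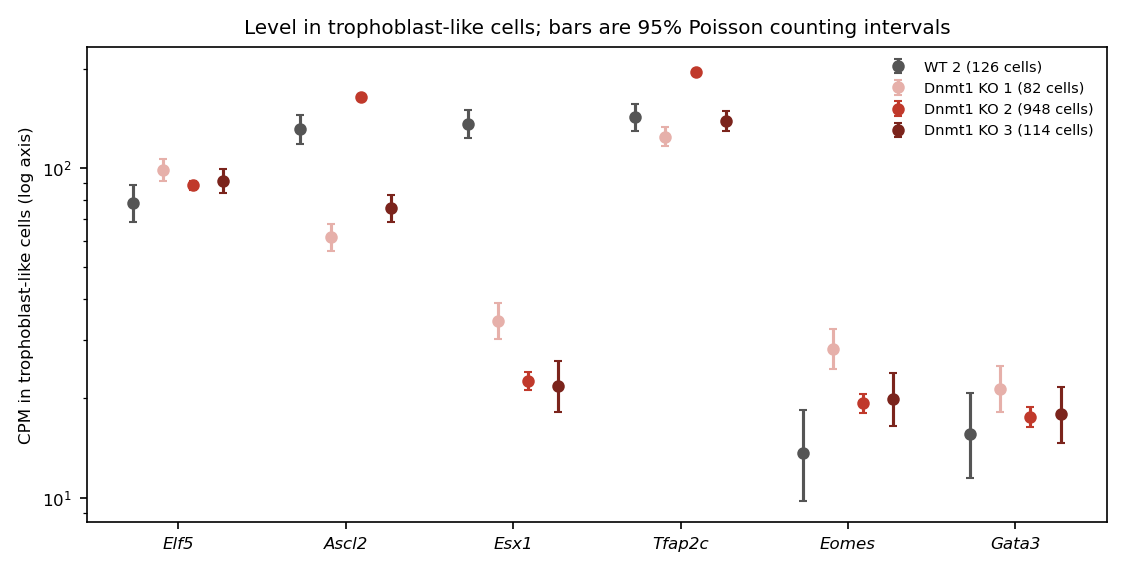
Level of each member in trophoblast-like cells, in CPM on a log axis, for the 4 libraries with at least 25 such cells, with 95% Poisson counting intervals. Elf5 lies between 78.2 and 98.5 CPM in all 4, whereas Esx1 is 136 CPM in WT 2 and 21.8 to 34.3 CPM in Dnmt1 KO.

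Single cells gave the same picture for Elf5. With every cell thinned to 1500 UMIs, 11.1% of the trophoblast-like cells of WT 2 held an Elf5 UMI (exact binomial 95% interval 6.21 to 17.9), and 13.4%, 13.3% and 11.4% did in Dnmt1 KO 1, 2 and 3. Unthinned, the shares were 36.5% in WT 2 and 82.9%, 72.6% and 64.9% in Dnmt1 KO. Thinned shares for Esx1 were 7.94% in WT 2 (3.87 to 14.1) and 7.32%, 4.43% and 3.51% in Dnmt1 KO. Their intervals overlapped that of WT 2, as did those of Ascl2 and Eomes. Eomes, higher in Dnmt1 KO by CPM, was in 3.97% of thinned WT 2 cells and in 2.44%, 1.79% and 0.877% in Dnmt1 KO. In erythroid-like cells of WT embryos, red blood cells that should lack Elf5, 0.0417% of thinned cells and 0.104% of unthinned cells held an Elf5 UMI, at a median depth of 31470 UMIs. At 1500 UMIs, at least 2 of the 6 members were found together in 18.8% of WT and 10.1% of Dnmt1 KO trophoblast-like cells. Outside trophoblast-like cells the same was true of 0.0437% of WT and 0.0506% of Dnmt1 KO cells.

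Summed over all kept cells, 4 of the 6 members were higher in Dnmt1 KO than in WT. A call needed an edgeR quasi-likelihood adjusted p under 0.01 (Benjamini-Hochberg over all genes tested) and a log2 fold change whose size was 1 or more. Over all genes, 14.1% were called in this comparison. In such sums more cells of a type and more RNA per cell cannot be told apart.

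Elf5 was 7.03, 31.9 and 7.03 CPM in Dnmt1 KO 1, 2 and 3, against a lowest, median and highest WT value of 0.410, 0.555 and 1.90 CPM. Every Dnmt1 KO embryo lay above every WT embryo, and the log2 fold change was 4.43 ± 0.49 (SE, adjusted p = 2.7e-06). Ascl2 was 4.63, 59.4 and 6.23 CPM in Dnmt1 KO against 0.613, 0.750 and 3.53 CPM in WT, a log2 fold change of 4.32 ± 0.63 (adjusted p = 5.5e-05). For both genes the highest WT value was that of WT 2, the WT embryo with trophoblast-like cells, and the highest Dnmt1 KO value that of embryo 2, which held most such cells. Tfap2c was 11.55, 72.1 and 14.99 CPM in Dnmt1 KO against 2.70, 3.99 and 5.64 CPM in WT (3.11 ± 0.38, adjusted p = 8.0e-06). Eomes was 3.1, 7.95 and 2.28 CPM in Dnmt1 KO against 0.404, 0.499 and 0.919 CPM in WT (3.02 ± 0.32, adjusted p = 1.6e-06). The groups did not overlap for either gene. Without Dnmt1 KO 2 the calls of these 4 genes held at smaller log2 fold changes, 3.28 for Elf5, 2.18 for Ascl2, 1.78 for Tfap2c and 2.27 for Eomes. Esx1 (log2 fold change 0.30 ± 0.35, adjusted p = 0.54) and Gata3 (-0.07 ± 0.20, adjusted p = 0.81) did not pass the test, and their groups overlapped.

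Trophoblast-like cells held 16.2% of the Dnmt1 KO cells and 19.0% of their UMIs, but 98.3% of the Elf5 UMIs (96.1% to 98.8% by embryo), 97.4% of the Ascl2 UMIs (89.7% to 98.2%), 91.5% of the Tfap2c UMIs (68.5% to 96.5%) and 79.1% of the Eomes UMIs (63.3% to 86.5%). These pooled shares lean on embryo 2, with 948 of the 1144 cells. For the members that were not called, the shares in embryos 1, 2 and 3 were 27.4%, 75.6% and 21.1% for Gata3 and 22.5%, 63.2% and 46.4% for Esx1. In WT embryos, where 0.372% of cells were trophoblast-like, those cells gave 27.1% of the Elf5 and 28.8% of the Ascl2 UMIs, nearly all from WT 2. Esx1 and Gata3 UMIs of WT embryos came from trophoblast-like cells for 4.26% and 0.584% alone.

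None of the 6 members was called over all kept cells in Dnmt3a KO, where 0.219% of all genes were called, or in Dnmt3b KO, where 1.82% were. Elf5 averaged 0.674 ± 0.21 CPM (SD, n = 4) in Dnmt3a KO and 0.776 ± 0.28 CPM (n = 3) in Dnmt3b KO, against 0.726 ± 0.52 CPM (n = 7) in WT, and the groups overlapped.

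**Figure D2:**
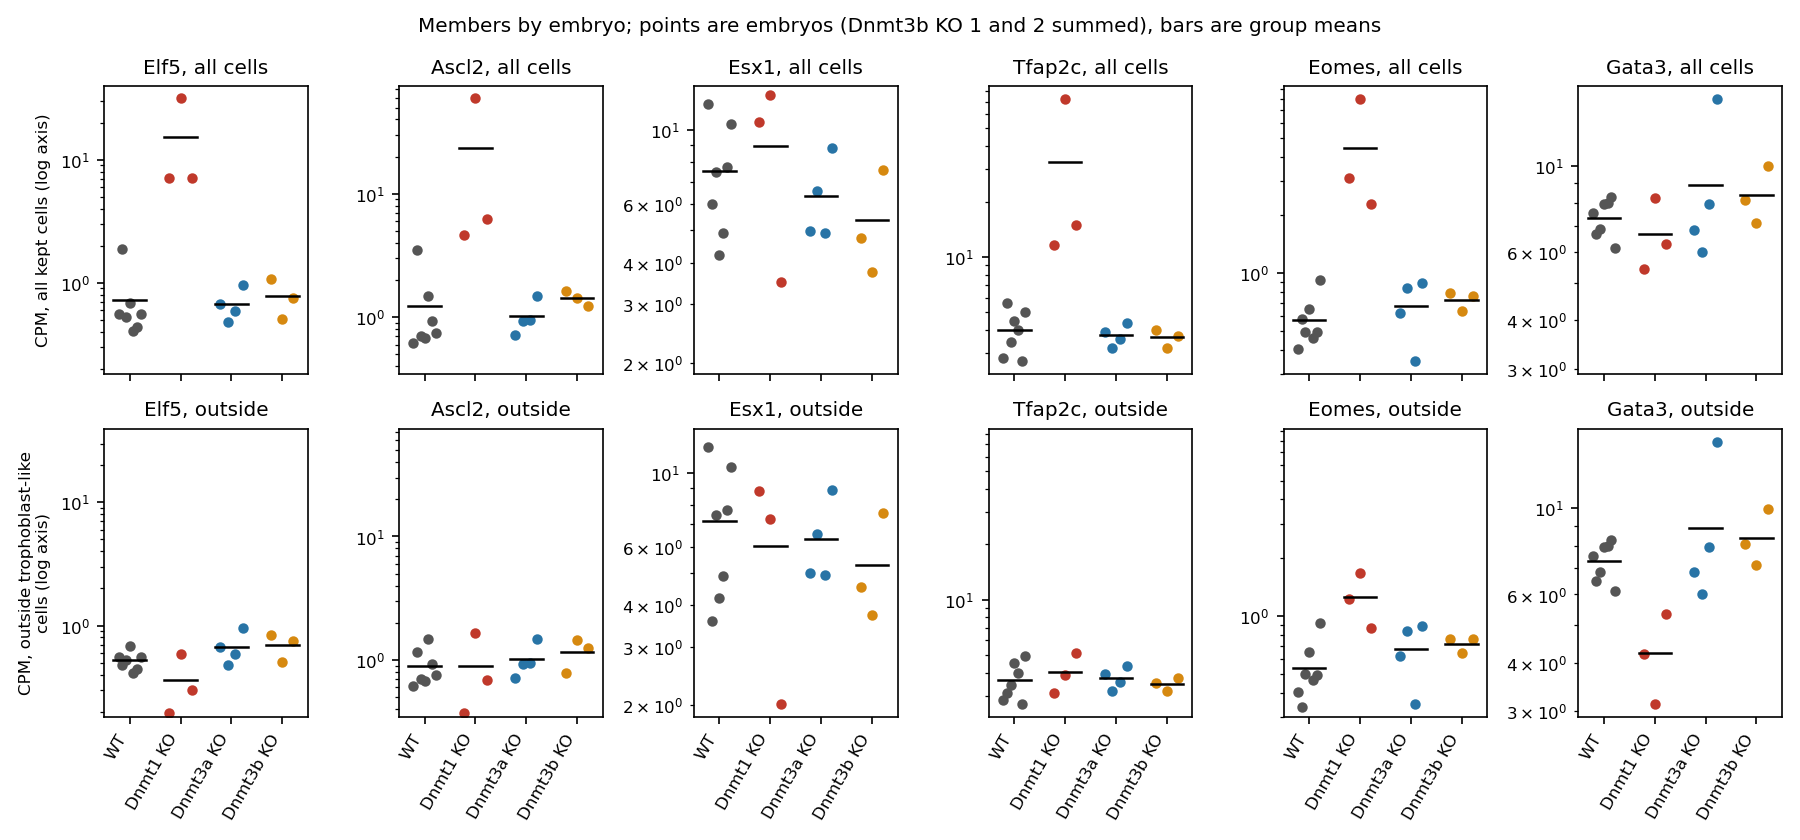
CPM of each member by embryo on a log axis, over all kept cells (top row) and outside trophoblast-like cells (bottom row), with points for embryos (Dnmt3b KO 1 and 2 summed) and bars for group means. Over all cells Elf5 is 7.03 to 31.9 CPM in Dnmt1 KO and at most 1.90 CPM in WT, and outside trophoblast-like cells it is 0.196 to 0.589 CPM in Dnmt1 KO and 0.410 to 0.685 CPM in WT.

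Outside trophoblast-like cells, 1 of the 6 members was called in Dnmt1 KO against WT, against 13.8% of all genes called. That member was Eomes, and Elf5, Ascl2 and Tfap2c, called over all cells, were not called here. Elf5 was 0.196, 0.589 and 0.298 CPM in Dnmt1 KO 1, 2 and 3 (19, 50 and 22 UMIs), and its lowest, median and highest WT values were 0.410, 0.527 and 0.685 CPM. Embryos 1 and 3 lay under every WT embryo and embryo 2 within the WT range, so the groups overlapped, and the log2 fold change was -0.48 ± 0.30 (adjusted p = 0.23), or -1.05 (adjusted p = 0.023) without Dnmt1 KO 2. The direction turned with doublets kept (0.23, adjusted p = 0.61) and without cells holding 2 or more trophoblast markers (1.59, adjusted p = 0.039). That filter counted any UMI of a marker in unthinned cells, so it removed deeper cells more readily. Nrk and Dusp9 were among its markers, at 42.7 to 152 and 65.0 to 108 CPM outside trophoblast-like cells of Dnmt1 KO. Ascl2 averaged 0.899 ± 0.66 CPM in Dnmt1 KO and 0.901 ± 0.32 CPM in WT (log2 fold change 0.11 ± 0.36, adjusted p = 0.84). Tfap2c averaged 4.03 ± 1.00 CPM against 3.64 ± 0.85 (0.23 ± 0.18, adjusted p = 0.32), and Esx1 6.03 ± 3.57 CPM against 7.18 ± 3.18 (-0.20 ± 0.40, adjusted p = 0.72).

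Eomes was 1.22, 1.66 and 0.866 CPM outside trophoblast-like cells of Dnmt1 KO 1, 2 and 3, against 0.340, 0.495 and 0.914 CPM as the lowest, median and highest of WT. Embryos 1 and 2 lay above every WT embryo and embryo 3 within the WT range, and the log2 fold change was 1.29 ± 0.28 (edgeR adjusted p = 0.0015). The call was lost without Dnmt1 KO 2 (1.02, adjusted p = 0.025), the embryo with most trophoblast-like cells, with replicate number as a block (1.54, adjusted p = 0.012), with sex by Y-linked counts as a covariate (1.47, adjusted p = 0.022) and with counts thinned to the smallest sum (1.12, adjusted p = 0.014). The replicate block kept only libraries whose number occurs in more than 1 group, so WT 4 to 7, among others, were left out. It also took Dnmt3b KO 1 and 2 as separate samples. Gata3 was 4.22, 3.13 and 5.36 CPM in Dnmt1 KO, under the lowest WT value of 6.12 CPM in each embryo, but its log2 fold change of -0.72 ± 0.21 (adjusted p = 0.0128) reached neither the p nor the size for a call.

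In Dnmt3a KO and Dnmt3b KO none of the 6 members was called outside trophoblast-like cells, where 0.267% and 1.98% of all genes were called. Elf5 averaged 0.674 ± 0.21 CPM (n = 4) in Dnmt3a KO (log2 fold change 0.32 ± 0.25, adjusted p = 0.71) and 0.700 ± 0.17 CPM (n = 3) in Dnmt3b KO (0.39 ± 0.27, adjusted p = 0.46). The other 5 members had log2 fold changes between -0.49 and 0.39 in these groups. Between KO groups, no member was called outside trophoblast-like cells for Dnmt1 KO against Dnmt3a KO (12.3% of all genes called), Dnmt1 KO against Dnmt3b KO (8.29%) or Dnmt3b KO against Dnmt3a KO (0.256%).

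**Figure D3:**
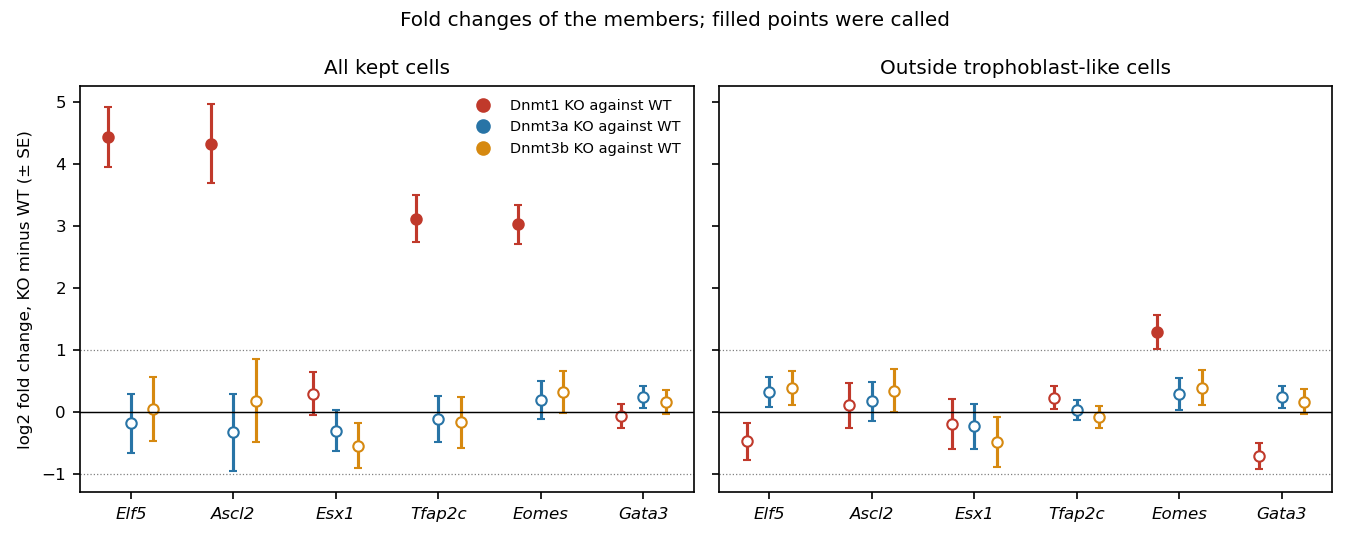
Log2 fold changes of the members against WT (± SE), over all kept cells (left) and outside trophoblast-like cells (right), for the 3 KO groups, with filled points for calls. In Dnmt1 KO, Elf5, Ascl2, Tfap2c and Eomes are called over all cells and Eomes alone outside.

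The remaining Elf5 of WT embryos had a clear site. Surface ectoderm-like cells, the future epidermis, held 503 of the 637 WT Elf5 UMIs outside trophoblast-like cells (79.0%). Elf5 was 8.10 ± 1.14 CPM there (n = 7, from 6.37 to 10.2), 9.52 ± 1.79 CPM in Dnmt3a KO (n = 4) and 8.08 ± 2.88 CPM in Dnmt3b KO (n = 3), and the groups overlapped. These levels were well under the 78.2 CPM of trophoblast-like cells in WT 2. Of WT surface ectoderm-like cells 19.7% held an Elf5 UMI at a median of 35664 UMIs, against 0.104% of erythroid-like cells at 31470. In Dnmt1 KO the class was nearly missing, with 1 cell in all 3 embryos.

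Elf5 outside trophoblast-like cells in Dnmt1 KO was therefore also set against WT with surface ectoderm-like cells left out of both, an alternative chosen after seeing the data. Elf5 was then 0.115 ± 0.041 CPM in WT (0.0572 to 0.172) and 0.361 ± 0.20 CPM in Dnmt1 KO (0.196 to 0.589). Every Dnmt1 KO embryo lay above every WT embryo. The class was left out because it held most WT Elf5 UMIs and hardly any Dnmt1 KO cells, which lowers WT alone. These levels are therefore a description. The edgeR fit of these sums, counted among the alternatives below, is not read as a test. In the same sums Elf5 was 0.116 ± 0.035 CPM in Dnmt3a KO and 0.187 ± 0.013 CPM in Dnmt3b KO, where the 3 samples also lay above every WT embryo. Tfap2c was 2.17 ± 0.71 CPM in WT and 4.03 ± 1.00 CPM in Dnmt1 KO, with overlap.

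In droplet data, free RNA carries UMIs of one cell type into droplets of another, so levels outside trophoblast-like cells were set beside those inside. In each of the 3 Dnmt1 KO embryos, Elf5 outside trophoblast-like cells was a smaller share of its level inside than any of the 11 trophoblast-like markers: 0.198%, 0.665% and 0.326% in embryos 1, 2 and 3, against 0.261%, 0.962% and 0.497% for Bmp8b, the lowest marker. Some markers were not low outside. Nrk was at 3071%, 971% and 504% of its level inside in embryos 1, 2 and 3, Plac1 at 486%, 29.8% and 34.9%. Dusp9 was at 43.4%, 40.1% and 28.7%. For Elf5 in Dnmt1 KO, 91 UMIs lay outside. These 91 Elf5 UMIs were spread over classes, with 29 in epiblast-like, 21 in extraembryonic (ExE) endoderm-like, 14 in ExE and lateral mesoderm-like and 8 in cardiomyocyte-like cells. In WT 2, Elf5 was 0.616% of its trophoblast level outside, above Rhox9 (0.231%) and Bmp8b (0.488%), with 51 of its 78 UMIs in surface ectoderm-like cells.

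Ascl2 was at 0.893% of its trophoblast level outside in WT 2 and 0.601%, 0.997% and 0.914% in Dnmt1 KO. Tfap2c was at 1.98% to 3.68%, Eomes at 2.49% to 8.59%, Esx1 at 2.64% to 32.1% and Gata3 at 17.8% to 41.5% over the 4 libraries.

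**Figure D4:**
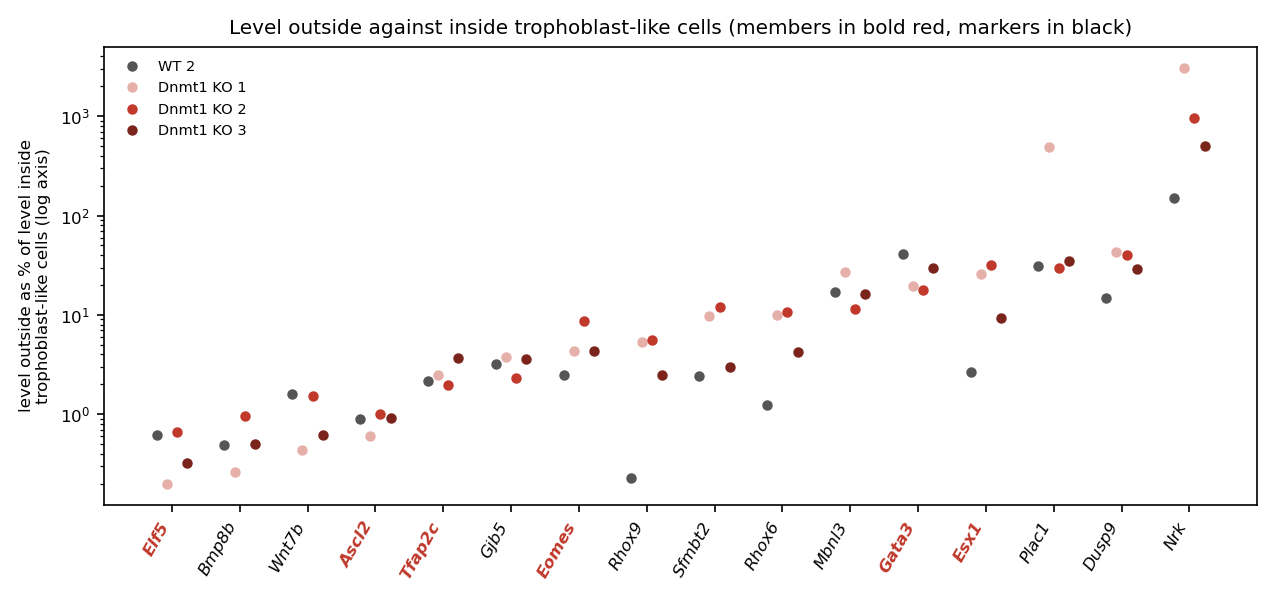
Level outside trophoblast-like cells as a percentage of the level inside, on a log axis, for the 6 members and 10 of the 11 markers in the 4 libraries with at least 25 such cells. Elf5 has the lowest percentage in each Dnmt1 KO embryo, 0.198% to 0.665%. Among the members Gata3 and Esx1 reach 41.5% and 32.1%, and the marker Nrk reaches 3071% in Dnmt1 KO 1.

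Within cell classes, 16 of 36 pairs of a member and a class could be tested in Dnmt1 KO against WT and 4 were called, 2 higher and 2 lower, against 8.56% of all gene and class pairs. No pair with Elf5, Ascl2 or Tfap2c was among them. Tfap2c in presomitic mesoderm-like cells was 2.03, 2.08 and 2.82 CPM in Dnmt1 KO 1, 2 and 3, above every WT embryo (0 to 1.64 CPM), but did not pass the test (log2 fold change 1.5 ± 0.53, edgeR adjusted p = 0.045). Elf5 in ExE and lateral mesoderm-like cells was too low to be tested, with 4, 8 and 2 UMIs in Dnmt1 KO (0.279, 0.691 and 0.157 CPM) and at most 2 UMIs in a WT embryo (up to 0.137 CPM), also without overlap. Different clusters held most of the ExE endoderm-like, ExE and lateral mesoderm-like, cardiomyocyte-like and presomitic mesoderm-like cells of Dnmt1 KO than of WT (cluster 15 with 980 of 1505, cluster 23 with 768 of 778, cluster 36 with 405 of 435 and cluster 39 with 354 of 669 cells). Cluster 39 held no WT cell, and cluster 20, with 56.2% of the WT presomitic mesoderm-like cells, no Dnmt1 KO cell.

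Esx1 in ExE endoderm-like cells, the yolk sac cells that held 94.1% of the WT Esx1 UMIs outside trophoblast-like cells, was 20.2, 14.8 and 16.01 CPM in Dnmt1 KO 1, 2 and 3. All 7 WT embryos were higher, with a lowest, median and highest value of 31.9, 39.6 and 75.8 CPM. The log2 fold change of Esx1 was -1.38 ± 0.29 (edgeR adjusted p = 0.0023), and the call was lost without Dnmt1 KO 2 (adjusted p = 0.019) or 3 (adjusted p = 0.013). Dnmt3a KO embryos stood at 27.5 to 52.2 CPM and Dnmt3b KO embryos at 26.7 to 50.2 CPM. With sex by Y-linked counts as a covariate the log2 fold change in ExE endoderm-like cells was -1.47 and the call was lost (adjusted p = 0.033), as it was without cells of 2 or more trophoblast markers (-1.42, adjusted p = 0.074). All 3 Dnmt1 KO embryos were male and 6 of the 7 WT embryos female, so that covariate rests on WT 2 and Dnmt3b KO 12, the only embryos whose sex differed from the rest of their group.

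Eomes in gut endoderm-like cells was 3.8, 4.70 and 2.61 CPM in Dnmt1 KO 1, 2 and 3, against 0.227 to 1.17 CPM in WT. The groups did not overlap and the log2 fold change was 2.50 ± 0.52 (edgeR adjusted p = 0.0013), but it rested on 8, 8 and 5 UMIs in 112 cells, and the call was lost without Dnmt1 KO 1 (adjusted p = 0.012) or 2 (adjusted p = 0.014) and was at the threshold with the replicate block (2.70, adjusted p = 0.01001). With counts thinned Eomes was too low there to be tested. Eomes in ExE endoderm-like cells was 1.36 ± 0.95 CPM in Dnmt1 KO and 1.96 ± 0.52 CPM in WT.

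Gata3 differed in direction between classes. In ExE and lateral mesoderm-like cells it was 4.12, 4.67 and 2.27 CPM in Dnmt1 KO 1, 2 and 3 and 7.73 to 12.04 CPM in WT, with no overlap (log2 fold change -1.31 ± 0.21, edgeR adjusted p = 0.00012). That call held with the sex covariate (adjusted p = 0.0021), with the replicate block (adjusted p = 0.0019), with counts thinned (adjusted p = 0.0050) and without any 1 embryo, and could not be tested without cells of 2 or more trophoblast markers. In that class 98.7% of the Dnmt1 KO cells lay in cluster 23, which held 0.774% of the WT cells, so the cells compared may differ in kind. Gata3 in cardiomyocyte-like cells was 3.31, 4.80 and 3.04 CPM in Dnmt1 KO and 0.754 to 2.43 CPM in WT, again with no overlap (1.38 ± 0.31, adjusted p = 0.0014), and that call was lost without Dnmt1 KO 2 (adjusted p = 0.012), with sex as a covariate (0.98, adjusted p = 0.098) and with the replicate block (1.03, adjusted p = 0.044). With counts thinned it could not be tested. In Dnmt1 KO, 93.1% of the cardiomyocyte-like cells lay in cluster 36, whose marker score was 1.29 for cardiomyocyte and 0.992 for epiblast. Clusters 34, 38 and 47, with most WT cells of the class, scored 2.46 to 2.88 for cardiomyocyte. The cardiomyocyte-like class may therefore also hold different kinds of cell in the groups compared. In gut endoderm-like cells Gata3 was 18.4 ± 6.1 CPM in Dnmt1 KO and 33.0 ± 5.9 CPM in WT. Of that class, cluster 17 held 8.93% of the Dnmt1 KO cells and 41.3% of the WT cells.

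In Dnmt3a KO, 41 of 96 pairs of a member and a class could be tested and 0 were called (0.108% of all gene and class pairs). In Dnmt3b KO, 39 of 90 could be tested and 0 were called (0.696%).

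Each member had its own order of sites in WT embryos outside trophoblast-like cells. Among classes with at least 25 cells in an embryo, Tfap2c was highest in surface ectoderm-like (31.5 ± 7.5 CPM) and neural crest-like cells (28.2 ± 8.8 CPM, n = 6), which did not differ beyond their spread, followed by hindbrain and spinal cord-like cells (7.58 ± 1.13 CPM). Gata3 was highest in gut endoderm-like (33.0 ± 5.9 CPM) and surface ectoderm-like cells (28.9 ± 6.1 CPM), again within their spread, then in endothelium-like cells (13.02 ± 3.2 CPM). Esx1 was 44.3 ± 15.1 CPM in ExE endoderm-like cells. Eomes was 1.96 ± 0.52 CPM there, with 57.8% of its outside UMIs, and Ascl2 was highest in immune-like cells, at 5.73 ± 5.77 CPM in WT (n = 3, 26 UMIs in 144 cells), 5.56 ± 0.50 CPM in Dnmt3b KO (n = 3), 3.13 ± 2.62 CPM in Dnmt3a KO (n = 4) and 1.78 ± 0.66 CPM in Dnmt1 KO (n = 3). Gut endoderm-like (2.67 ± 1.67 CPM) and surface ectoderm-like cells (2.59 ± 1.88 CPM) of WT followed for Ascl2, within that spread. The immune-like class was cluster 28, which scored 2.94 for immune and 2.77 for megakaryocyte markers, so it may hold both kinds. Dnmt1 KO embryos differed in where Tfap2c was found: 76.3% of its UMIs outside trophoblast-like cells lay in 824 epiblast-like cells, at 16.7 to 19.5 CPM, a class with 15 cells in all WT embryos, too few for a level, that held 138 Tfap2c UMIs. The class was cluster 21, which scored 2.58 for epiblast markers and 1.76 for primordial germ cell markers. Dppa3, on the germ cell list, was among its leading genes, and which kind its cells were in each group was not tested.

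**Figure D5:**
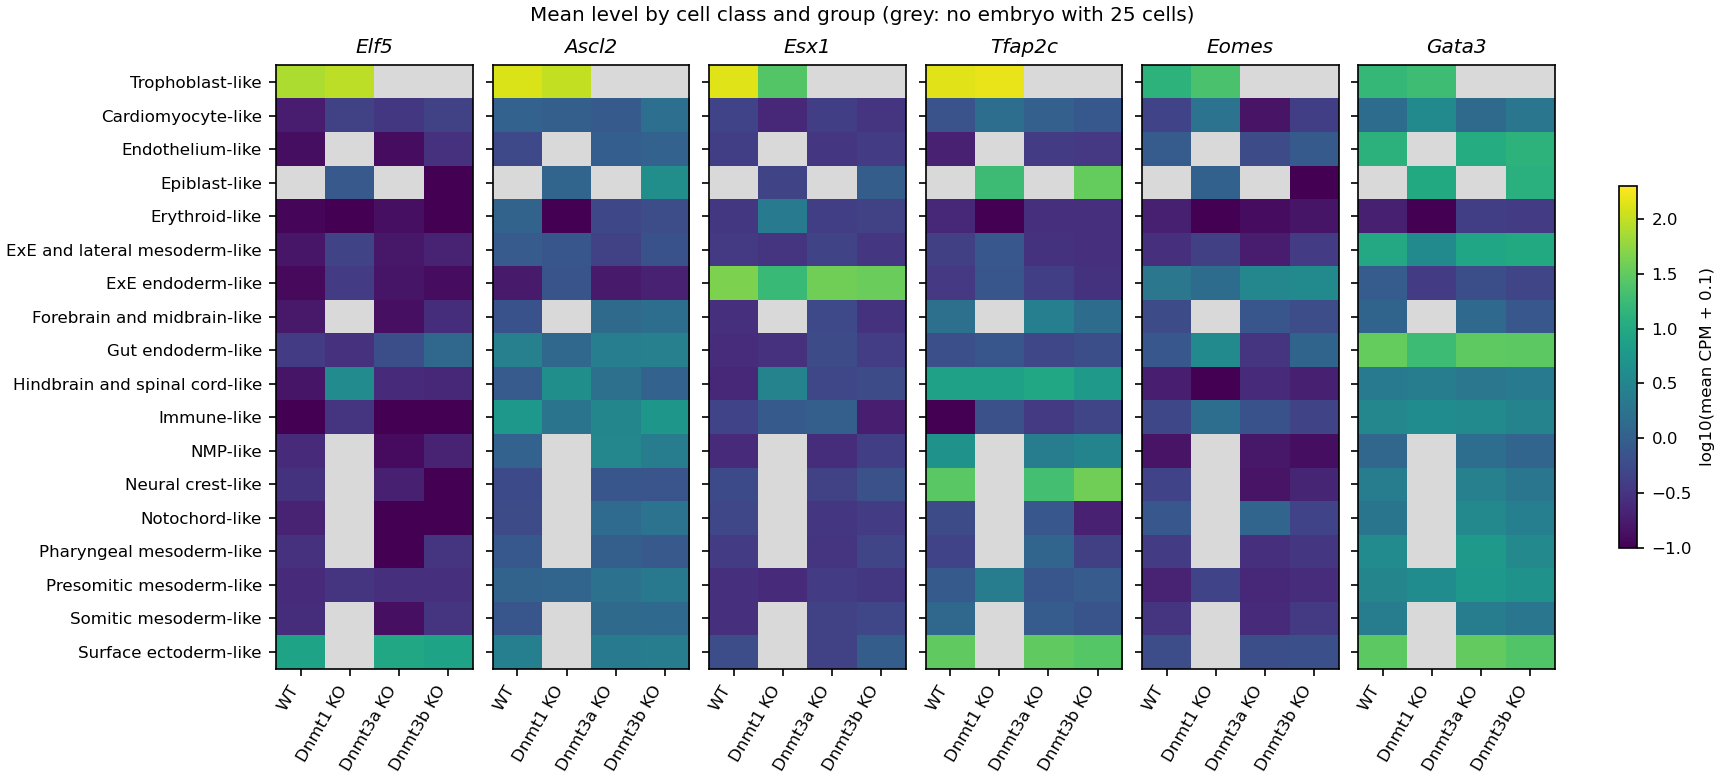
Mean level of each member by cell class (rows) and group (columns), coloured by log10(mean CPM + 0.1), over embryos with at least 25 cells of the class. Apart from trophoblast-like cells, Elf5 stands out in surface ectoderm-like cells (8.08 to 9.52 CPM), a class that is grey in Dnmt1 KO, and Esx1 in ExE endoderm-like cells.

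The genes most like Elf5 were found by Pearson's r of log2(CPM + 1) over 262 sums of 1 embryo and 1 class, 4 of them trophoblast-like. The sums share embryos and differ in depth, so r is a description. They were Vstm5 (0.85), Prom2 (0.85), Vgll1 (0.84), Bmp8b (0.84) and AU018091 (0.82). Among the members, Tfap2c (0.67) and Ascl2 (0.65) were closest to Elf5, and Esx1 was farthest (0.26). Without the trophoblast-like sums the list changed to Trp63 (0.90), Bhlha9 (0.88), Srms (0.87), Foxi2 (0.87) and Tmprss13 (0.87), and Trp63 is known as a factor of the epidermal lineage. Bmp8b (0.72) led the list for Ascl2, Triml2 (0.91) that for Esx1, Zfp42 (0.80) that for Eomes and Nkx2-3 (0.80) that for Gata3.

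Other regulators of trophoblast were read from a list of 14 symbols, of which 13 were tested and 1, a misspelling of Esrrb made for this list, matched no gene, so that Esrrb was not analysed here. Outside trophoblast-like cells of Dnmt1 KO, 2 were called higher and 1 lower, where 13.8% of all genes were called, and their median log2 fold change was -0.26, against 0.02 over all genes. Gata2, a GATA factor of trophoblast and blood, rose from 2.55 to 4.21 CPM in WT to 10.2, 11.8 and 10.7 CPM (log2 fold change 1.76 ± 0.17, edgeR adjusted p = 6.4e-07). Klf5, a factor of trophectoderm and pluripotent cells, rose from 4.15 to 7.06 CPM in WT to 17.0, 20.2 and 11.1 CPM (1.65 ± 0.18, adjusted p = 3.4e-06). Sox2, a factor of pluripotent and neural cells, fell (-1.52 ± 0.22, adjusted p = 6.1e-05). No Dnmt1 KO cell was named forebrain and midbrain-like or neural crest-like, with 0 of each against 953 and 586 in WT. Neuromesodermal progenitor-like cells numbered 16 against 1330. Hindbrain and spinal cord-like cells were present, with 399 in Dnmt1 KO, all in cluster 4. That cluster held 924 WT cells, 29.3% of the WT class. It was shallow, at a median of 0.345 of the library's median depth, and scored 1.84 for this class and 1.49 for forebrain and midbrain. The study, with its own names, reported rostral neuroectoderm as overrepresented and neural crest as underrepresented in Dnmt1 KO. Which neural kinds the cells of cluster 4 were was not tested. Immune-like cells numbered 464 and epiblast-like cells 824 among 7068 kept Dnmt1 KO cells, against 204 and 15 among 34421 of WT. In such sums a change in cell classes and a change per cell cannot be told apart. The part of the class differences in the levels of Gata2, Klf5 and Sox2, and of Elf3 and Tfap2b below, was not tested. None of the 13 was called in Dnmt3a KO or Dnmt3b KO.

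Of 21 paralogues of the members, 17 were tested outside trophoblast-like cells of Dnmt1 KO, and 2 were called higher, Gata2 and the ETS factor Elf3 (1.26 ± 0.26, edgeR adjusted p = 0.0011, but 0.024 without Dnmt1 KO 2), and 1 lower, Tfap2b, again where 13.8% of all genes were called. The median log2 fold change of the paralogues was 0.18. Of 8 giant cell and ectoplacental cone markers 3 were tested and 0 called, with a median of 0.34. Of the 11 trophoblast-like markers, Rhox6 and Rhox9, X-linked homeobox genes of the placenta, were called higher outside trophoblast-like cells, both in Dnmt1 KO (1.73 ± 0.37 and 4.26 ± 0.56, 13.8% of all genes called) and in Dnmt3b KO (1.99 ± 0.37 and 5.05 ± 0.57, 1.98% of all genes called). The median of the 11 was 0.56 in Dnmt1 KO and 0.35 in Dnmt3b KO. The library labelled Dnmt3b KO 12 stood apart, with 82.8 CPM of Rhox6 against 13.7 to 19.6 CPM in the other 3 Dnmt3b KO libraries, and 42.8 CPM of Rhox9 against 3.20 to 5.81 CPM. Without it the Dnmt3b KO call of Rhox6 was lost (0.87, adjusted p = 0.18) and that of Rhox9 held at 3.20 (adjusted p = 7.1e-05), and without Dnmt1 KO 2 the Dnmt1 KO call of Rhox6 was lost (adjusted p = 0.017). No paralogue or giant cell and cone marker was called in Dnmt3a KO or Dnmt3b KO.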

How the data were processed

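Per the file headers, the authors ran Cell Ranger 3.1.0 for 17 libraries and 5.0.0 for 1, where the study's methods name 5.0.0 alone, and deposited UMI counts per gene and barcode, with a combined human and mouse reference in 4 of 18 libraries and mouse alone in 14. Barcodes with 1500 or more mouse UMIs, at most 30% mitochondrial and at most 35% ribosomal UMIs were kept, and doublets were called with Scrublet and removed. Up to 1500 cells a library (26830 in all) were clustered on 50 components of 2500 variable genes with 30 neighbours and Leiden resolution 2 (scanpy 1.11.5), leaving out the 6 members, and cluster labels were transferred to the other cells. Of 51 clusters, 41 were named from marker lists, into 18 classes, and 10 stayed unnamed (20.9% of WT, 7.56% of Dnmt1 KO, 19.6% of Dnmt3a KO and 19.0% of Dnmt3b KO cells). Names were rebuilt here and may differ from the study's.

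UMI counts were summed per embryo, over all cells, outside trophoblast-like cells, or per class with at least 25 cells in an embryo. One edgeR 4.0.16 quasi-likelihood model over the 4 groups (filterByExpr, TMM scaling, R 4.3.3) was fitted on all genes with Benjamini-Hochberg adjustment, and was tested on simulated data. DESeq2 1.42.0 was an alternative. CPM are the UMIs of a gene per 1000000 UMIs of the sum. Intervals are exact, at 95%, and cover counting error only. Each library was a separate sample, except Dnmt3b KO 1 and 2, which were summed. The replicate block took these 2 as separate samples and kept only libraries whose number occurs in more than 1 group. Groups came from the labels. All members were named in the text, together with the genes called in each list and the 5 genes most like Elf5, and the leading one for each other member but Tfap2c. One marker gene is not reported here. The members and lists were chosen with earlier results of these data known. Median depth ranged from 4452 to 59714 UMIs a cell. Paired replicate numbers, other filters and scalings, leaving out each embryo, thinning and removal of free RNA were the alternatives.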

Additional observations from a re-analysis of the deposited data

Results flagged for a closer look

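Over all kept cells, WT 2 lay far from the other 6 WT embryos for Elf5, at 1.90 CPM, and for Ascl2, at 3.53 CPM. In all, 24 sets of values were checked in this way, of which chance gives about 1 in 20. Each set was a member in WT or Dnmt3a KO, over all kept cells or outside trophoblast-like cells. Sets of the same member and group share most of their cells. Dnmt1 KO and Dnmt3b KO were not checked. WT 2 was also the WT embryo with 126 trophoblast-like cells and the only male one.

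The change over all kept cells differed between KO groups by a test of the difference itself (edgeR). Against Dnmt3a KO, Dnmt1 KO was higher on the log2 scale by 4.61 for Elf5, 4.65 for Ascl2, 3.23 for Tfap2c and 2.83 for Eomes. Against Dnmt3b KO it was higher by 4.39 for Elf5, 4.14 for Ascl2, 3.28 for Tfap2c and 2.71 for Eomes. Outside trophoblast-like cells, 12.3% and 8.29% of all genes were called in these comparisons. The share over all cells is not given here. Trophoblast-like cells made up 16.2% of Dnmt1 KO cells, and 3 and 15 such cells were found in all of Dnmt3a KO and Dnmt3b KO.

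Within classes, Dnmt1 KO was higher than Dnmt3a KO by 1.64 for Gata3 in cardiomyocyte-like cells and by 3.96 for Eomes in gut endoderm-like cells. Gata3 in ExE and lateral mesoderm-like cells differed by -1.09 from Dnmt3a KO and by -1.37 from Dnmt3b KO. The share of all gene and class pairs called in these comparisons is not given here.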

How the results depend on the processing

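Members called outside trophoblast-like cells in Dnmt1 KO against WT (1 of 6) numbered 0 with sex by Y-linked counts as a covariate, with the replicate block and with counts thinned, 2 without cells of 2 or more trophoblast markers, 2 without surface ectoderm-like cells, 5 (all lower) with free RNA at the median marker ratio subtracted and 3 at the lowest ratio, and 0 to 1 with 1 embryo left out (0 without Dnmt1 KO 2). Both subtractions touch all 3 Dnmt1 KO embryos but 1 of 7 WT embryos, so they lower Dnmt1 KO against WT by construction. The median ratio removes more than free RNA where a marker is made outside trophoblast-like cells. The filter on 2 or more markers removes deeper cells more readily, since any UMI of a marker counts. Leaving out surface ectoderm-like cells lowers Elf5 in every group but Dnmt1 KO by that choice, so its counts are not read as tests. Class pairs (4) numbered 2 with the sex covariate, 2 with the replicate block, 2 thinned, 0 without cells of 2 or more markers (4 pairs could then be tested), 7 with free RNA subtracted and 1 to 5 with 1 embryo left out (1 without Dnmt1 KO 2). Against Dnmt3a KO (0) the count was 1 with DESeq2, 1 with no filter, 1 thinned, 1 without cells of 2 or more markers, 5 and 2 after the subtractions, 2 without surface ectoderm-like cells and 0 to 1 with 1 embryo left out. Against Dnmt3b KO (0) it was 1, 5, 2 and 1 for the last 4 of these settings and 0 to 1. The share of all genes called under each setting is not given here, so these counts are not set against it. The cause of these changes was not tested. The trophoblast-like share in Dnmt1 KO ranged from 7.16 to 8.98 with 1 embryo left out, and in Dnmt3b KO from -1.74 to 0.456 (0.456 without WT 2, 0.300 without Dnmt3b KO 12).

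Directions turned as follows, in log2 fold change outside trophoblast-like cells. In Dnmt1 KO, Elf5 was 0.23 with doublets kept, 1.59 without cells of 2 or more markers and 1.66 without surface ectoderm-like cells (and -9.29 and -9.44 after the subtractions), Ascl2 -0.0077 with the sex covariate, -0.33 thinned, -9.91 and -2.05 after the subtractions and -0.68 to 0.49 with 1 embryo left out, Esx1 0.0086 with the sex covariate, 0.43 without cells of 2 or more markers and -0.56 to 0.20, Tfap2c -12.08 and -0.14 after the subtractions, and Eomes -4.11 after the first. In Dnmt3a KO, Elf5 was -0.056 and Tfap2c -0.071 without surface ectoderm-like cells, Ascl2 -0.10 and Gata3 -0.089 with the replicate block, Esx1 0.85, Tfap2c -0.019 and Eomes -0.18 without cells of 2 or more markers, Tfap2c -0.031 to 0.11 and Gata3 -0.013 to 0.38 with 1 embryo left out. In Dnmt3b KO, Esx1 was 0.17, Eomes -0.22 and Gata3 -0.043 without cells of 2 or more markers, and Tfap2c 0.20 with the block and 0.12 after the first subtraction. Of Dnmt3b KO the block kept libraries 1 and 2 alone, which share most barcodes. Over all cells in Dnmt1 KO, Esx1 was -0.13 with the block and -0.071 to 0.68, and Gata3 -0.27 to 0.078, with 1 embryo left out.

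Same-numbered samples did not deviate together (13 pairs, correlations -0.40 to 0.42, 5 over 0.1), so the labels' replicate numbers gave no pairing, and over all cells the replicate block left 4 of 6 calls. The subtraction at the lowest ratio, the removal of surface ectoderm-like cells and the leaving out of embryos for the listed genes were chosen after seeing the data. A test within trophoblast-like cells was not run, since 1 WT embryo held enough of them, and such levels are limited by the 3448 UMIs of a median WT 2 cell.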

Other observations

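In WT embryos 15 epiblast-like cells held 138 Tfap2c UMIs, and in Dnmt1 KO 824 such cells held 770, at 16.7, 19.5 and 18.1 CPM in embryos 1, 2 and 3. Primordial germ cell markers scored second in the cluster of this class. Whether its cells were of the same kind in each group was not tested. In Dnmt3b KO 12, 43 epiblast-like cells gave 33.4 CPM of Tfap2c.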
